A study of Mus musculus with 4 samples.

Results

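The SOCS proteins and the PIM kinases are feedback products of cytokine signalling, and their RNA was followed here in effector CD4 cells of mice with EAE, an inflammatory model of MS that CD4 cells drive after priming against a myelin peptide. The genes were taken by symbol, with no threshold on a measured value, as Socs1 to Socs7, Cish, Pim1 and Pim2, which makes 10 of the 23990 gene symbols in the deposited tables. All 10 averaged 1 FPKM or more in CNS or dLN and so entered the test, which covered 10634 genes. FPKM is a count of sequenced fragments divided by transcript length and by library depth, so levels can be compared between genes of a library. Comparisons between libraries also depend on how the libraries are scaled, which was varied below.

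A cytokine receptor activates JAK kinases, which phosphorylate STAT factors, and the STAT factors switch on genes in the nucleus. Among these genes are Cish and several Socs genes, whose proteins carry an SH2 domain and a SOCS box and return to the receptor or the kinase to end the signal. Pim1 and Pim2 encode serine/threonine kinases that are active once translated, so their abundance is set largely by how much RNA and protein the cell makes, and they promote survival and growth of T cells after cytokine or antigen receptor stimulation.

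There were 2 libraries of effector CD4 cells (CD44+CD4) taken from spinal cord (CNS) and 2 libraries of such cells from the draining lymph nodes (dLN), which were pooled. The mice were wild type C57BL/6 (C57BL/6J in the study's methods), had received MOG peptide in complete Freund's adjuvant together with pertussis toxin, and were killed at disease onset. The study's methods state that sorted cells of both tissues were stimulated with PMA and ionomycin, whereas the labels describe the cells as freshly sorted, and no age is given. Nothing in the labels says that the 2 libraries of a tissue came from separate animals, so p-values measure the spread between these libraries, which may be technical. The depth read from the steps of low FPKM values was about 18550000 to 22000000 fragments per library, and the members had between 119 estimated fragments (Socs5 in CNS replicate 1) and 15261 (Pim1 in dLN replicate 2).

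The libraries had the RNA of T cells, with Cd3e at 328 and 389 FPKM in CNS and 104 and 89.2 FPKM in dLN, while Cd8a stayed under 1 FPKM in all 4. Of 10 CD4 T cell markers, 5 were called higher in CNS (Cd4, Cd3e, Cd3d, Cd3g and Cd28), 3 lower (Cd247, Cd5 and Cd44) and 2 were not called (Cd2 and Lat), with log2 ratios from -0.56 for Cd44 to 2.83 for Cd3g. Several other lists moved with the tissue, and their part in the results below was not tested. Of the 16 myeloid and microglial markers found, 14 were tested, of which 8 were called higher in CNS and 0 lower. In dLN the mean was under 1 FPKM for 15 of the 16, so those tested among the 15 passed the filter through CNS only. Their direction was thereby fixed in advance. The summed level was 30.4 and 472 FPKM in CNS replicates 1 and 2 against 4.61 and 4.22 FPKM in dLN. S100a8 was listed at 0 in CNS replicate 1 and stood at 101 FPKM in replicate 2, and 9 of the 16 markers were at 0 in both dLN libraries, among them Tyrobp and C1qa. Summed markers of B cells did not exceed 1.76 FPKM in any library, those of CD8 and NK cells did not exceed 9.76 FPKM, and those of neurons and glia, carried mostly by Mbp, were at 49.8 to 58.0 FPKM in all 4. Of 20 genes that PMA and ionomycin induce, 15 were called lower in CNS and 2 higher, with summed levels of 1843 and 2525 FPKM in CNS and 12913 and 14272 FPKM in dLN. Among the 15, Fosl1 and Il4 averaged under 1 FPKM in CNS and passed the filter through dLN only, so their direction was also fixed in advance. The 4 Y-linked genes Ddx3y, Eif2s3y, Kdm5d and Uty had reads in CNS replicates 1 and 2 and none in dLN, while Xist stood at 26.6 and 22.3 FPKM in the dLN libraries and at or near 0 in the others, so tissue and sex of the mice cannot be told apart. In such bulk samples, fewer cells of a type and less RNA per cell cannot be told apart either.

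Between CNS and dLN, 2 of the 10 genes were called higher in CNS, 7 were called lower and 1 was not called, in limma on log2(FPKM + 1) with a Benjamini-Hochberg adjusted p under 0.05. Socs2 and Socs3 were the genes higher in CNS, each by more than a factor of 4, whereas Pim1, Pim2, Socs1 and the group Socs4 to Socs7 were lower and Cish was not called. Across all genes tested, 74.9% were called, 37.8% higher and 37.2% lower in CNS, so a call by itself did not set these genes apart. The libraries of the tissues did not overlap for 9 of the 10 genes, against 89.4% of all genes. Of the 10 genes, 3 were called and also differed by 1 or more on the log2 scale, against 39.2% of all genes. The median log2 ratio of CNS over dLN was -0.48 over the 10 genes and 0.045 over all genes tested.

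**Figure D1:**
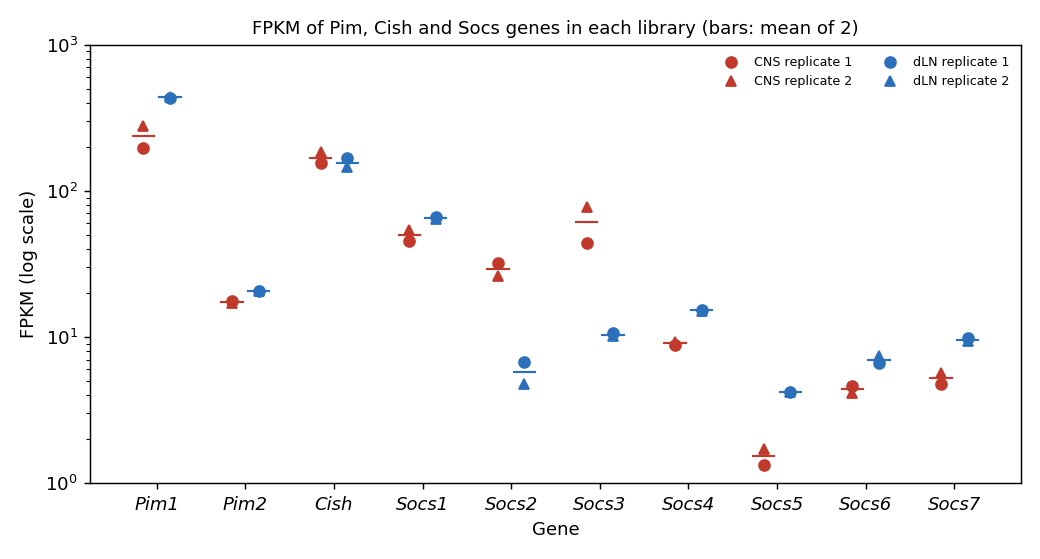
FPKM on a log axis of the 10 genes in each of the 4 libraries, with circles for replicate 1, triangles for replicate 2 and short bars for the mean of 2 libraries per tissue. Socs2 and Socs3 stand well above their dLN values in CNS, Pim1 and Socs5 stand below, and the Cish points of the tissues are interleaved.

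Pim1 (Entrez gene 18712, mm10 chromosome 17, 29491045 to 29495459) was the most abundant of these transcripts in every library. Its level was 196 and 279 FPKM in CNS and 430 and 441 FPKM in dLN. The tissues did not overlap, and the dLN pair was much the tighter of the pairs. Mean FPKM was 237 ± 58.8 in CNS and 436 ± 7.59 in dLN (SD, n = 2 each), a difference of -0.90 ± 0.18 (SE) in log2(FPKM + 1), with an adjusted p in limma of 0.00769. Leaving out any single library kept this difference between -1.15 and -0.64. Genes that PMA and ionomycin induce were lower in CNS as well, as given above, and their part in this difference was not tested. An antisense gene, Gm26885, overlaps Pim1 exons in GENCODE M21, and since the counting is not stated to use strand, reads of the pair cannot be told apart.

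Pim2 (Entrez gene 18715, chromosome X, 7878306 to 7883432) encodes a kinase that shares many substrates with PIM1 and was far less abundant. It was at 17.7 and 17.0 FPKM in CNS and at 20.5 and 20.7 FPKM in dLN, so the pairs were separate but close. The log2 ratio was -0.24 (standard error 0.08) and its adjusted p in limma was 0.0498, at the edge of the threshold. It passed the threshold in 3 of 14 alternative fits, over which the adjusted p ranged from 0.00999 to 0.312. Pim1 exceeded Pim2 by 11.1 and 16.4 times in the CNS libraries and by 21.0 and 21.3 times in the dLN libraries, a ratio taken within each library and free of its scaling.

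Pim3, the remaining kinase of the family and no member of the group by the rule, was lower in CNS by more than either of them. It was at 10.4 and 18.1 FPKM in CNS and at 77.1 and 86.1 FPKM in dLN, a difference of -2.48 ± 0.26 (SE) in log2(FPKM + 1), with an adjusted p in limma of 0.000817. Pim1 was therefore 18.7 and 15.4 times as abundant as Pim3 in CNS and 5.58 and 5.12 times in dLN. Pim2 was 1.69 and 0.940 times Pim3 in the CNS libraries, where the order of these kinases differed between the replicates, and 0.266 and 0.240 times Pim3 in dLN.

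Cish (Entrez gene 12700, chromosome 9, 107296689 to 107301961) encodes CIS, a STAT5-induced inhibitor of IL-2 receptor and T-cell receptor signalling. It was at 154 and 184 FPKM in CNS and at 167 and 145 FPKM in dLN, and the CNS values lay on either side of the dLN replicate 1 value. The log2 ratio was 0.11 with a 95% interval from -0.22 to 0.44 (limma adjusted p = 0.458), an interval that holds 0 and modest differences of either sign. Its direction turned to -0.086 when each library was rescaled to the same sum. An antisense gene (Gm17041) and a pseudogene (Gm17040) on the other strand overlap Cish exons.

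Socs1 (Entrez gene 12703, chromosome 16, 10783809 to 10785536) encodes the main inhibitor of JAK kinases downstream of the IFNγ receptor. It was at 45.7 and 54.1 FPKM in CNS and at 66.0 and 64.6 FPKM in dLN. All CNS values were below all dLN values, by a modest margin, and the difference was -0.39 ± 0.11 (SE) in log2(FPKM + 1), with an adjusted p in limma of 0.0247. The call was lost without dLN replicate 1 (adjusted p in limma of 0.108) and without dLN replicate 2 (0.0874), while the log2 ratio stayed at -0.37 and -0.40. The tables list 2 transcripts of the same span for Socs1, and NM_009896 held 65.7% and 77.2% of its FPKM in CNS and 79.3% and 66.6% in dLN, so the share moved as much between replicates as between tissues.

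Socs2 (Entrez gene 216233, chromosome 10, 95411490 to 95416857) encodes an inhibitor best known for its action on the growth hormone receptor, and in T cells it is induced through STAT5. It was at 31.9 and 26.2 FPKM in CNS and at 6.75 and 4.77 FPKM in dLN. The tissues were well separated, and the mean FPKM of 29.1 ± 4.03 in CNS was 5.04 times the 5.76 ± 1.40 in dLN (SD, n = 2 each). On the log2(FPKM + 1) scale the difference was 2.16 ± 0.18 (SE), with an adjusted p in limma of 0.000445, and it lay between 1.95 and 2.37 with each library left out. Of its 4 listed transcripts, NM_007706 held 92.3% and 84.0% of the FPKM in CNS and 86.7% and 73.9% in dLN.

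Socs3 (Entrez gene 12702, chromosome 11, 117966087 to 117969366) encodes the inhibitor of gp130 receptors such as the IL-6 receptor and is itself induced by STAT3. It was at 44.3 and 77.6 FPKM in CNS and at 10.6 and 10.1 FPKM in dLN. Both CNS libraries lay several-fold above dLN, and CNS replicate 2 was 1.75 times replicate 1. The difference in log2(FPKM + 1) was 2.39 ± 0.27 (SE), with an adjusted p in limma of 0.00109. CNS replicate 2 is the library with the high myeloid sum given above, and without it the log2 ratio was 1.996. That fit has 1 CNS library and so holds no spread within CNS. The myeloid sum was 30.4 FPKM in the CNS library that then remains, still above the 4.61 and 4.22 FPKM of dLN, and its part in the Socs3 difference was not tested.

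Promoter windows from RefSeq (build GRCm38.p6, 250 bases before and 50 after the annotated start) were used for 6 of the 10 genes, in 7 windows. No window of Socs2, Socs5, Socs6 or Socs7 was part of the search. They were searched for TTCNNNGAA, the spacing of palindromic STAT sites, which reads the same on both strands, and for GAAANNGAAA on both strands, a repeat that interferon regulatory factors recognise. The Cish, Socs1 and Socs3 windows are shown because each holds a match, and of these genes Socs3 was called higher in CNS, Socs1 was called lower and Cish was not called. Capitals mark the matches.
Cish, chr9:107296409-107296708, plus strand: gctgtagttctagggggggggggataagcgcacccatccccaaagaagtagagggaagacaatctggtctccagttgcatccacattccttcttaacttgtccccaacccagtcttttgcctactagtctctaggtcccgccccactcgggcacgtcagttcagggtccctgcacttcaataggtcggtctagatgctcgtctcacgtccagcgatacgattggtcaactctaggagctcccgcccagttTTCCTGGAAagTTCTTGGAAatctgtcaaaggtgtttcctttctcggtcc
Socs3, chr11:117969317-117969616, minus strand: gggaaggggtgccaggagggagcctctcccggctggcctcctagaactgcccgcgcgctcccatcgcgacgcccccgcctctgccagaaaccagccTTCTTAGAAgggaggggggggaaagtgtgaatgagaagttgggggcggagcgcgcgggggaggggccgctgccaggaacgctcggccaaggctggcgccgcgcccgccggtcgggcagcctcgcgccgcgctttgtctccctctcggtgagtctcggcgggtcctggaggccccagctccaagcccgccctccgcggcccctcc
Socs1, chr16:10785487-10785786, minus strand: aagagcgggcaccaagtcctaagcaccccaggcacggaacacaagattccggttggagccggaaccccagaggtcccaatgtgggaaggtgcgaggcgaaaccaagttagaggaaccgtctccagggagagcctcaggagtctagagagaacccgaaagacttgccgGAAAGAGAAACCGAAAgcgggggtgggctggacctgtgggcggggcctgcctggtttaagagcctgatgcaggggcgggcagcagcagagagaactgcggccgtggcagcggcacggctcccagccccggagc
Counted from 1 at the left end, the palindromic spacing begins at positions 251 and 262 of the Cish window and at position 97 of the Socs3 window, and it occurs in 8.29% of all 32817 RefSeq promoter windows of this length. The repeat begins at positions 168 and 174 of the Socs1 window, where the matches overlap each other, and it occurs in 3.43% of all windows. The Socs4 window, the Pim2 window and both Pim1 windows held neither string of letters. Neither Pim1 window (29490535 to 29490834 and 29492835 to 29493134) holds the start of the measured Pim1 transcript, 29491045. The Socs4 window (47276670 to 47276969) ends before the start of the measured Socs4 transcript, 47277143. For Pim1 and Socs4 the search thus did not cover the measured start sites. A match is a string of letters and not a measured binding site.

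Socs4 to Socs7 encode the larger SOCS proteins with long N-terminal regions, whose genes respond less to cytokines and which act on growth factor receptors and on signalling adaptors. All 4 were called lower in CNS, and their libraries did not overlap between the tissues. Their summed FPKM was 19.5 and 20.8 in CNS and 36.0 and 36.1 in dLN, with closely matching replicates. Socs5 (Entrez gene 56468, chromosome 17, 87107679 to 87137588), an inhibitor of EGF receptor and IL-4 receptor signalling, had the largest difference in size among them. It was at 1.34 and 1.71 FPKM in CNS and at 4.17 and 4.22 FPKM in dLN, a difference of -1.05 ± 0.13 (SE) in log2(FPKM + 1), with an adjusted p in limma of 0.00141. With a pseudocount of 1 this scale understates the change of so low a gene, and the ratio of the mean FPKM was 2.75 in favour of dLN.

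Socs7 (chromosome 11, 97362551 to 97398542), whose protein binds signalling adaptors, was at 4.79 and 5.67 FPKM in CNS and at 9.80 and 9.35 FPKM in dLN (log2 ratio -0.77, limma adjusted p = 0.00258). Socs4 (chromosome 14, 47277143 to 47291591), an inhibitor of EGF receptor signalling, was at 8.76 and 9.31 FPKM in CNS and at 15.4 and 15.1 FPKM in dLN (log2 ratio -0.70, limma adjusted p = 0.00156). Socs6, whose protein binds activated KIT and LCK, was at 4.61 and 4.16 FPKM in CNS and at 6.60 and 7.42 FPKM in dLN (log2 ratio -0.57, limma adjusted p = 0.00692). These genes kept their calls in each of the alternative fits that tested them with the same threshold, with log2 ratios from -0.94 to -0.65 for Socs7, from -0.88 to -0.57 for Socs4 and from -0.74 to -0.46 for Socs6.

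**Figure D2:**
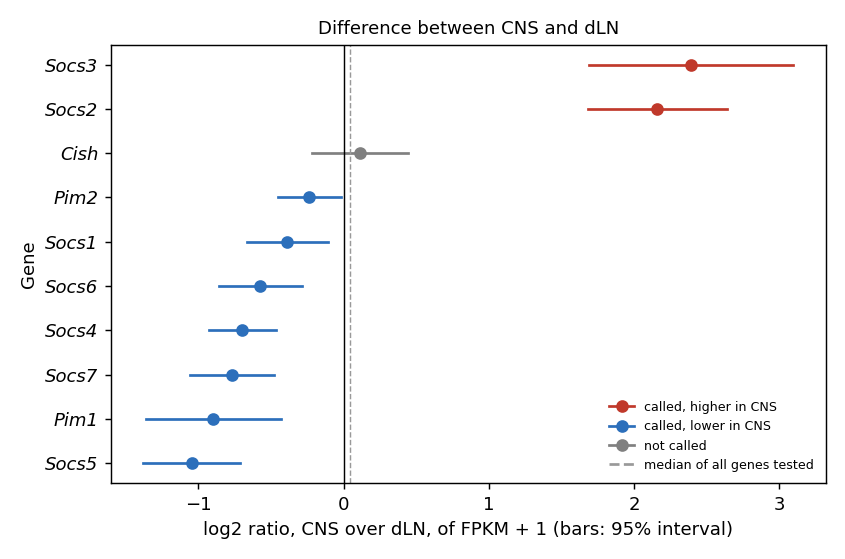
Log2 ratio of CNS over dLN on the FPKM + 1 scale for the 10 genes, with 95% intervals from limma, red for genes called higher in CNS, blue for genes called lower, grey for Cish, and a dashed line at the median of all genes tested (0.045). Socs2 and Socs3 stand at 2.16 and 2.39, and the 7 genes called lower lie between -1.05 and -0.24.

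The order of the levels differed between the tissues. In CNS the mean FPKM descended from Pim1 (237) through Cish (169), Socs3 (61.0), Socs1 (49.9), Socs2 (29.1), Pim2 (17.3), Socs4 (9.03), Socs7 (5.23) and Socs6 (4.38) to Socs5 (1.53). Of these neighbours, Socs3 and Socs1 had libraries that overlapped. In dLN the order was Pim1 (436), Cish (156), Socs1 (65.3), Pim2 (20.6), Socs4 (15.3), Socs3 (10.4), Socs7 (9.57), Socs6 (7.01), Socs2 (5.76) and Socs5 (4.20), and there the libraries of Socs6 and Socs2 overlapped. Socs3 was thus the third gene in CNS and the sixth in dLN, and Socs2 the fifth and the ninth.

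Ratios within a library show the same shift without dependence on scaling. Socs3 stood at 0.969 and 1.44 times Socs1 in CNS and at 0.161 and 0.156 times Socs1 in dLN. Cish was 4.82 and 7.004 times Socs2 in CNS and 24.8 and 30.3 times Socs2 in dLN. Cish over Socs1 was the steadier pair, at 3.37 and 3.40 in CNS and 2.53 and 2.24 in dLN.

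Summed over the 10 genes, FPKM was 509 and 658 in CNS and 737 and 722 in dLN. The Pim kinases held 41.9% and 44.9% of this sum in CNS and 61.1% and 63.9% in dLN. Cish with Socs1 to Socs3 held 54.2% and 51.9% in CNS and 34.0% and 31.0% in dLN. Pim1 was thus the chief source of the larger total in dLN, while the summed FPKM of Cish and Socs1 to Socs3 was 276 and 342 in CNS against 251 and 224 in dLN.

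**Figure D3:**
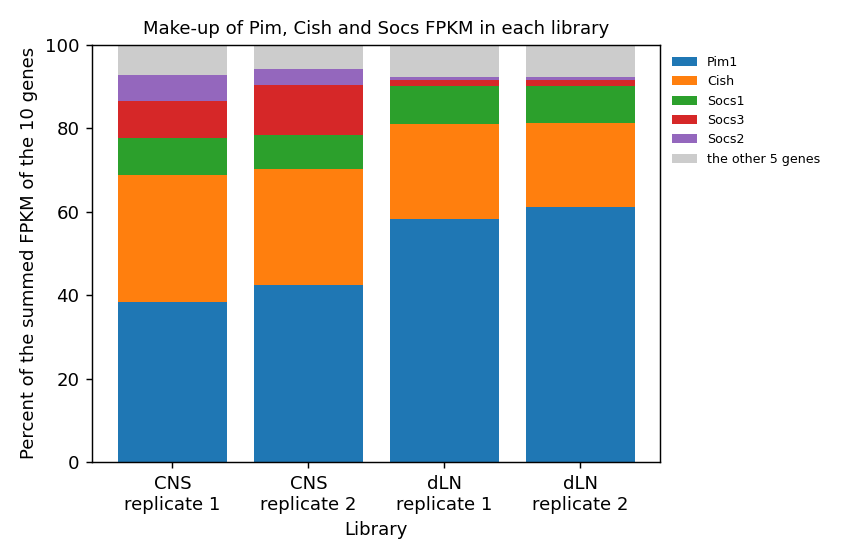
Share of the summed FPKM of the 10 genes held by Pim1, Cish, Socs1, Socs3, Socs2 and the other 5 genes together in each library, as stacked bars that add to 100%. Pim1 takes 38.5% and 42.4% in the CNS libraries and 58.3% and 61.1% in the dLN libraries, and the Socs3 part narrows from 8.71% and 11.8% in CNS to 1.44% and 1.40% in dLN.

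The upstream parts of the pathway moved in both directions. Over lists of 87 tested genes of JAK-STAT and PIM signalling, 36 were called higher in CNS, 35 lower and 16 were not called, a share of calls near that of all genes. Of the 11 JAK and STAT genes, 5 were called higher and 4 lower, with a median log2 ratio of 0.23. Stat5a, the STAT factor that IL-2 activates together with Stat5b, was at 13.4 and 19.6 FPKM in CNS and at 121 and 123 FPKM in dLN (log2 ratio -2.84, limma adjusted p = 0.000215). Stat5b differed less, with a log2 ratio of -0.49. Stat2, a factor of type I interferon signalling, was at 13.0 and 15.1 FPKM in CNS and at 3.54 and 2.80 FPKM in dLN (log2 ratio 1.85). Stat3, whose list of targets holds the genes below, was at 71.9 and 77.0 FPKM in CNS and at 62.4 and 64.5 FPKM in dLN and was not called (log2 ratio 0.23, limma adjusted p = 0.0559). Among the kinases, Jak2 was lower in CNS (log2 ratio -2.69), whereas Jak1, Jak3 and Tyk2 were higher (1.66, 1.79 and 1.01).

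Of 19 tested receptor chains, 10 were called higher in CNS and 5 lower, with a median log2 ratio of 0.67. Ifngr1, the ligand-binding chain of the IFNγ receptor, was at 497 and 471 FPKM in CNS and at 14.7 and 11.02 FPKM in dLN (log2 ratio 5.14). Il12rb2 and Il7r were also higher (3.98 and 3.82). Il6st, which encodes gp130, the chain that SOCS3 binds, was at 3.93 and 6.66 FPKM in CNS and at 44.5 and 57.1 FPKM in dLN (log2 ratio -3.06), the opposite direction to Socs3.

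Of 14 cytokines that signal through JAKs, 10 were called lower in CNS and 1, Ifng, higher, with a median log2 ratio of -3.25. In CNS the mean was under 1 FPKM for 3 of the 14 (Il4, Il5 and Il9), so these passed the filter through dLN only. Their lower direction was thereby fixed in advance. In dLN the mean was under 1 FPKM for 1, Il6, which passed through CNS only and was not called. Il2, the cytokine of T-cell growth, was at 18.2 and 38.8 FPKM in CNS and at 5363 and 6176 FPKM in dLN. Il3 and Il22 had log2 ratios of -5.46 and -5.71. Il4 was listed at 0 and at 0.225 FPKM in CNS and at 266 and 273 FPKM in dLN. Several of these cytokines are also on the list of genes that PMA and ionomycin induce, so the lists are not independent.

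Genes known to be induced by STAT5 and by STAT3, other than the 10 genes themselves, were described by factor. Of 6 STAT5 targets, 2 were called higher (Ccnd3, 3.08, and Bcl2, 2.24) and 2 lower (Il2ra, -2.65, and Ccnd2, -1.19). Of 6 STAT3 targets, 2 were called higher (Junb, 2.38, and Bcl3, 1.51) and 3 lower (among them Il21, -5.15, and Batf, -1.44). The targets of STAT3 and STAT5 thus moved both ways within each list.

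**Figure D4:**
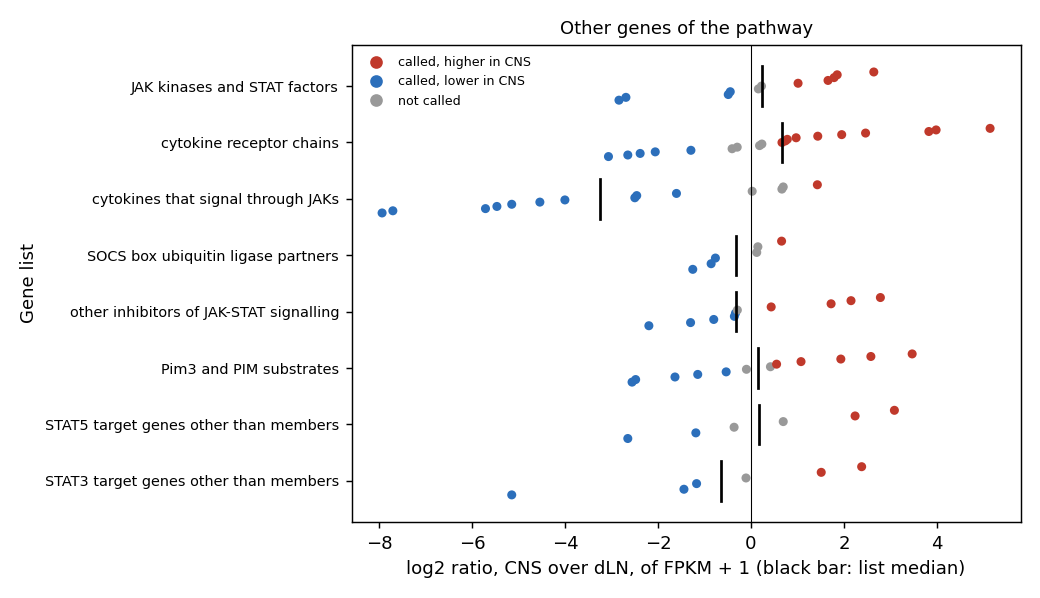
Log2 ratio of CNS over dLN on the FPKM + 1 scale for each tested gene of 8 lists of the pathway, red for called higher in CNS, blue for called lower, grey for not called, with a black bar at the median of each list. The cytokine list has its median at -3.25, and every list shown has called genes on both sides of 0.

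The partners through which a SOCS box recruits a ubiquitin ligase were measured as well. Of 6 genes, 1 was called higher in CNS and 3 lower, with a median log2 ratio of -0.32. Tceb2, which encodes elongin B, was at 267 and 321 FPKM in CNS and at 189 and 182 FPKM in dLN (log2 ratio 0.66), whereas Cul5, the scaffold of the ligase, was at 6.32 and 5.24 FPKM in CNS and at 11.6 and 10.9 FPKM in dLN (log2 ratio -0.86). Rnf7 and Cul2 had log2 ratios of -0.77 and -1.25.

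Other inhibitors of JAK-STAT signalling moved both ways, with 4 of 10 called higher in CNS, 5 lower and a median log2 ratio of -0.31. Usp18, an inhibitor of the interferon receptor, was at 12.2 and 13.4 FPKM in CNS and at 1.16 and 0.856 FPKM in dLN (log2 ratio 2.78). Pias3 and Ptpn6, the gene of the phosphatase SHP-1, had log2 ratios of 2.15 and 1.72, and Sh2b3, the gene of the adaptor LNK, one of -2.20.

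Of 12 genes that comprise Pim3 and known substrates of PIM kinases, 5 were called higher in CNS and 5 lower, with a median log2 ratio of 0.16. Eif4ebp1, a brake on translation, was lower in CNS (log2 ratio -2.56), whereas Cdkn1b, the gene of the cell cycle inhibitor p27, was higher (2.58). Cxcr4, whose protein PIM1 phosphorylates, had a log2 ratio of 3.47.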

How the data were processed

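The RNA of sorted CD4 cells was measured in 4 libraries, 2 per tissue. The files deposited by the authors hold, after their trimming and mapping, FPKM for 33819 RefSeq transcripts (mm10), 1 table per tissue. The aligner and the program behind FPKM are not given in the sources used here. In the CNS header the library names share a cell, and the values were read in that order. Here FPKM was summed by symbol, and 565 transcripts without a symbol (0.142% to 0.446% of FPKM) were left out. Genes averaging 1 FPKM or more in a tissue were tested with limma 3.58.1 (R 4.3.3, eBayes with trend) on log2(FPKM + 1), tissue as the only term, p-values adjusted over all genes tested. Starts were raised by 1, which matched RefSeq starts in 81.7% of 11444 genes with equal ends. Depth came from low values lying within 0.05 of a whole fragment (90.0% to 92.3% of them). With 2 libraries per tissue the smallest two-sided p of an exact permutation test is 0.333. Named list genes were those with the largest log2 ratios among genes of at least 10 FPKM, and Stat3, Stat5b, Jak1, Jak3, Tyk2, Ifng, Spsb3 and Wsb1 were added after their values were seen. Some list genes are not reported here. Members and lists were chosen with earlier results of these data known. Python 3.11.15, numpy 2.4.6, pandas 2.3.3 and matplotlib 3.10.9 were used.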

Additional observations from a re-analysis of the deposited data

How the results depend on the processing

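Across pseudocounts, scalings, filters, the highest transcript, eBayes without trend, the replicate block and leaving out each library, between 7 and 9 of the 10 genes and between 5927 and 8477 of all genes were called, and Socs2, Socs3, Socs4, Socs5, Socs6, Socs7 and Pim1 passed the threshold of 0.05 in each fit that tested them (Socs5 did not pass the filter at a mean of 5 FPKM). The calls lost in these fits were those of Pim2 and Socs1. A further criterion, a difference of 1 or more on the log2 scale, left 3 of the 10 genes and 4168 of 7968 called genes, by the construction of that criterion. Cish turned to -0.086 when libraries were scaled to equal sums, and leaving out single libraries it ranged from -0.016 (without CNS replicate 2) to 0.24, without a call in any fit, and the cause was not tested. That scaling shifted the median log2 ratio of all genes by -0.18, and the same upper quartile shifted it by 0.12, where Socs1 (adjusted p in limma 0.0701) and Pim2 (0.312) were not called. No source says whether the replicate numbers pair libraries of the tissues. The differences between replicates had a correlation of 0.0933 across genes between the tissues, a value that cannot settle whether they do. A fit with the replicate block called 7828 genes, 8 of the 10 genes and 71 pathway genes, and Pim2 lost its call. Depth was inferred and not counted, and with a library left out, its tissue keeps 1 library that is assumed to vary like the other tissue's.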

Other observations

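The SOCS box also occurs in families without the central SH2 domain of the genes above. Of 26 Asb, Wsb, Spsb and Rab40 genes found, listed by symbol after the data had been seen, 13 reached a mean of 1 FPKM in a tissue. Of these, 8 were called higher in CNS, 3 lower and 2 were not called. Across all genes tested, 37.8% were called higher and 37.2% lower. The median log2 ratio was 0.64 over the 13 genes and 0.045 over all genes tested. Among the 8, Spsb2 passed the filter through CNS only, with a mean of 1.96 FPKM there and 0.341 FPKM in dLN. Asb2, whose protein directs the destruction of filamins, was at 11.8 and 13.2 FPKM in CNS and at 1.96 and 1.32 FPKM in dLN, a difference of 2.36 ± 0.15 (SE) in log2(FPKM + 1), with an adjusted p in limma of 0.000223. Wsb2, Asb6 and Wsb1 were lower in CNS, with log2 ratios of -1.13, -0.74 and -0.48. Wsb2 was at 15.9 and 21.3 FPKM in CNS and at 39.4 and 43.7 FPKM in dLN. Spsb3 was the most abundant of the Spsb genes, at 32.7 and 37.7 FPKM in CNS and at 28.4 and 26.6 FPKM in dLN, with a log2 ratio of 0.34 (limma adjusted p = 0.0344).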
